A study of Mus musculus with 17 samples.

Results

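The genes described here lie in the middle of mouse chromosome 19. They are the genes whose smallest exon start falls from 20 Mb to below 60 Mb of a chromosome on which the last annotated gene ends at 63.3 Mb. The stretch was selected on measured values, because an earlier look at the same hearts had shown genes there that differed between bsg and wild-type (WT) libraries. The direction, the size and the separation of that difference are therefore given as a description. Calls from the fit across all genes serve only to sort the genes, and they are no independent evidence for the stretch. It holds 439 of the 41096 genes in the count table, and 228 of them were among the 15013 genes with enough reads to be fitted. A further 492 genes of chromosome 19 start below 20 Mb and 49 start at 60 Mb or beyond.

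The study sequenced total RNA from whole hearts of mice aged 4 months on a C57BL/6 background. It compared 7 WT hearts (4 female, 3 male) with 10 bsg hearts (5 female, 5 male), and bsg is the name the labels give to the genotype without saying which alteration it carries. The series title places the work in a genetic cardiomyopathy, a disease of the heart muscle that is inherited. The labels give no treatment of the living animals. Hearts were taken under isoflurane, frozen, and made into strand-specific libraries depleted of ribosomal RNA. The libraries held 13886399 to 17554850 counted fragments.

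Chromosome 19 is the smallest mouse autosome, and most genes on it have their own promoter and are transcribed separately from the genes beside them. Whole heart tissue mixes cardiomyocytes, which supply much of the RNA, with fibroblasts, endothelial cells, smooth muscle and immune cells. In such bulk samples fewer cells of a type and less RNA per cell cannot be told apart. The table names genes by identifiers of the C57BL/6NJ strain annotation and does not pair them with gene symbols, and 0 of 41096 identifiers matched the name tables at hand. Gene functions and the marker genes of heart cell types were for that reason not analysed here, and most genes below are named by where they start. Positions are those of the C57BL_6NJ_v1 assembly.

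Several libraries need naming before the results. On the first principal component of all 15013 fitted genes, which held 36.7% of the variance, bsg female replicate 2 scored 54.6, WT female replicate 2 scored 35.1 and WT male replicate 2 scored 18.6, while the other 14 libraries scored between -20.6 and 8.75. The first 2 of these also had the most detected genes, 20589 and 20118, against 18597 to 19438 in the other 15 libraries. WT female replicate 1 did not stand apart in this way, but at a few genes near 37 Mb it lay among the bsg hearts. Sample titles carry a number, which 5 libraries have to themselves, WT female replicate 1 among them, and which the others share with libraries of their own group. What the numbers stand for is not stated, so counts of called genes are also given with the libraries of a number summed into 1 sample. All 29 pairs of libraries within a group differed by more than sampling noise, with a chi-square per degree of freedom of at least 5.11, so no library appears to have been deposited more than once. This does not show that the libraries come from separate animals, and n below counts libraries. The design text calls the samples biological replicates, without saying that every library comes from its own animal. It also gives fewer replicates per condition than the 5 bsg libraries that the labels give in each sex. The p-values below measure the spread between these libraries.

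Of the 228 fitted genes, 27 were called between bsg and WT over both sexes. A gene was called when its p-value from edgeR's quasi-likelihood test, adjusted by the Benjamini-Hochberg method over all 15013 genes, was under 0.05. The 27 genes are 11.8% of the fitted genes in the stretch, beside 4.26% of all fitted genes. Higher in bsg were 12 genes (5.26%, beside 2.14% of all genes), and lower in bsg were 15 (6.58%, beside 2.12%). Without bsg female and WT female replicates 2 the count was 24, and without WT male replicate 2 as well it was 19. With libraries summed by title number it was 13, and by DESeq2 it was 32. Since the stretch was chosen for this contrast, nothing is read from these shares. Elsewhere on chromosome 19, 15 of 273 fitted genes were called.

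The complete separation of the libraries was counted as well, meaning that the levels of the bsg and the WT hearts did not overlap. Levels are given in CPM, the fragment count relative to the library's size after TMM scaling, and 1 CPM is about 14 to 18 fragments in these libraries. All 10 bsg hearts lay above all 7 WT hearts at 5 genes of the stretch (2.19%, beside 0.426% of all fitted genes). At 3 genes all bsg hearts lay below all WT hearts (1.32%, beside 0.353%). All 8 were also called, 6 of them lie on the minus strand, and they have between 5 and 29 separate exon blocks. Elsewhere on chromosome 19 the hearts separated at 2 genes, both lower in bsg, at 4.48 and 4.64 Mb.

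Most differences in the stretch were small. The median absolute log2 fold change was 0.121 over the 228 genes and 0.087 over all fitted genes, while the median signed value was 0.013 against -0.003 and the median standard error (SE) 0.077 against 0.078. The median of the average log2 CPM was 4.18 in the stretch and 4.13 over all fitted genes. A difference of at least 2-fold (1 on the log2 scale) was estimated for 10 of the 228 genes (4.39%) and for 183 genes of the whole table (1.22%). Of those 10 genes, 7 were called and 3 were not. A called difference of at least 1.5-fold was found at 10 genes, 5 in each direction, and the other 17 called genes differed by less.

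**Figure D1:**
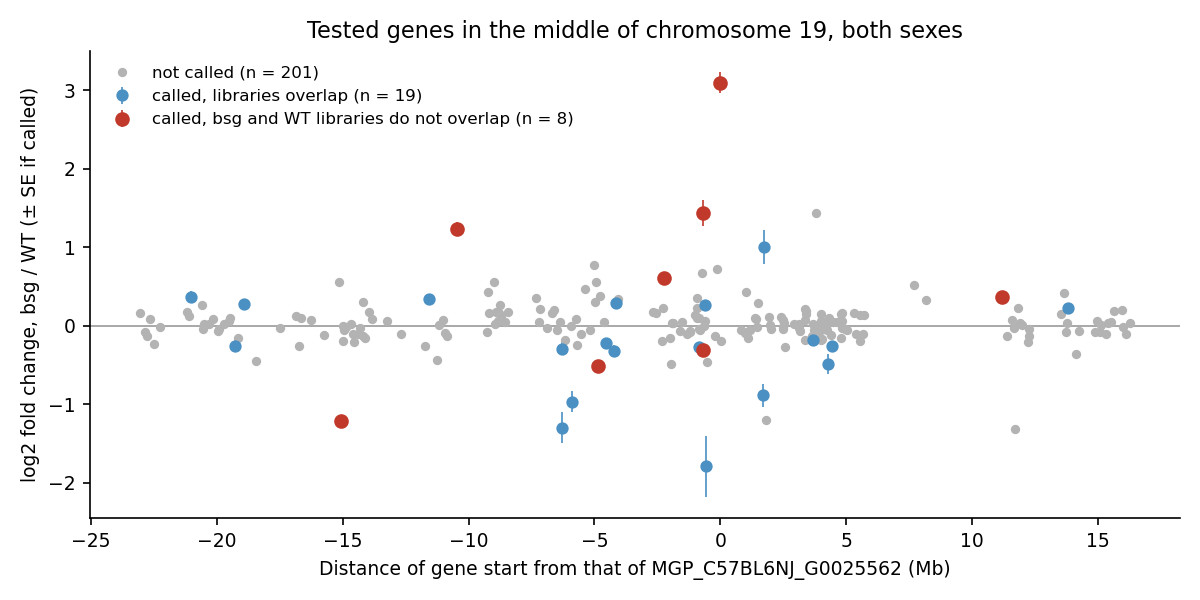
The log2 fold change of bsg over WT, both sexes together, for the 228 fitted genes, by the distance in Mb of each gene's start from the start of MGP_C57BL6NJ_G0025562. Grey points are genes not called, blue points are called genes whose bsg and WT libraries overlap, and red points are the 8 genes whose libraries do not overlap, with bars of 1 SE on called genes. The highest point, at 0 Mb and a log2 fold change of 3.10, stands above all others.

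The called genes were spread along the whole stretch, in both directions, and were densest between 35 and 45 Mb, as the plot of fold change by position shows. In windows of 5 Mb, 7 of 28 fitted genes were called from 35 to 40 Mb (25%), 6 of them lower in bsg, and 9 of 47 from 40 to 45 Mb (19.1%), 5 of them higher. The other 6 windows each held 1 to 3 called genes out of 8 to 54 fitted. The median absolute log2 fold change was 0.235 from 35 to 40 Mb and 0.16 from 40 to 45 Mb. It was 0.274 from 50 to 55 Mb, where only 8 genes were fitted, and 0.079 to 0.166 in the remaining windows. The window from 40 to 45 Mb held 4 of the 8 separated genes, and the windows starting at 25, 30, 35 and 50 Mb held 1 each.

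Genes that did not separate lay between nearly all of the separated ones. From the first, at 28.07 Mb, the next was 4.63 Mb away with 23 other fitted genes between them, and the following gap of 5.57 Mb held 33. The gaps then narrowed to 2.63 Mb (10 genes), 1.54 Mb (18 genes) and 0.02 Mb (no gene), and the next of 0.68 Mb held 7 genes. The last gap, from 43.15 to 54.34 Mb, was the widest at 11.18 Mb, with 70 fitted genes in it. Both directions were mixed along the chromosome: the order of the 8 genes from 28.07 Mb was lower, higher, lower, higher, higher, lower, higher, higher.

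At the nearest fitted gene on each side of each border of the stretch the values were small. The last fitted gene before 20 Mb, at 19.96 Mb, had a log2 fold change of 0.10 (SE 0.05), and the first inside, at 20.09 Mb, had 0.16 (SE 0.12). At the other border the gene at 59.44 Mb, inside, had 0.04 (SE 0.05), and the gene at 60.11 Mb, outside, had -0.10 (SE 0.07). None of these 4 genes separated the hearts. Calls did not end at 60 Mb. From 60 to 65 Mb 2 of 16 fitted genes were called (12.5%, beside 4.26% of all fitted genes). They start at 60.72 Mb (log2 fold change -0.39) and 62.96 Mb (0.34), and neither separated the hearts. From 15 to 20 Mb 0 of 14 fitted genes were called.

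The gene with the largest difference was MGP_C57BL6NJ_G0025562, which lies on the minus strand of chromosome 19 from 43154332 to 43181246 and has 16 exon blocks with 3119 bp of exon. In WT females its level was 1.45, 2.47, 1.48 and 1.94 CPM, and in WT males 1.08, 1.43 and 1.37 CPM. In bsg females it was 15.7, 9.67, 12.9, 10.7 and 10.6 CPM, and in bsg males 13.6, 14.2, 14.1, 14.5 and 17.1 CPM. Every bsg heart was far above every WT heart, and the lowest bsg value was 3.92 times the highest WT value. The fragments behind these levels numbered 174 over the 7 WT libraries and 2097 over the 10 bsg libraries. WT hearts averaged 1.6 ± 0.458 CPM (SD, n = 7) and bsg hearts 13.3 ± 2.37 CPM (SD, n = 10). On the log2 scale the fitted difference was 3.10 (SE 0.13), or 8.55-fold. It was 3.50 (SE 0.21) in males and 2.69 (SE 0.17) in females, and 3.04 to 3.25 over the 25 other ways of processing the counts or choosing the libraries, the highest being without the 3 libraries that lie apart.

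The gene second in size among those higher in bsg was MGP_C57BL6NJ_G0025552, on the minus strand from 42453126 to 42464371, with 5 exon blocks. WT females had 2.40, 2.01, 2.97 and 1.49 CPM and WT males 1.69, 1.5 and 1.6 CPM. bsg females had 4.90, 3.15, 6.18, 6.34 and 3.79 CPM and bsg males 4.82 to 5.94 CPM with a median of 5.29. The groups did not overlap, but only narrowly so in females, where bsg replicate 2 was 1.06 times WT replicate 3. The fitted log2 difference was 1.43 (SE 0.16), with 1.73 (SE 0.25) in males and 1.13 (SE 0.21) in females. Behind these levels were 212 fragments over the WT libraries and 803 over the bsg libraries.

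A further 3 genes were higher in every bsg heart. The first, on the minus strand at 32706043 to 32962638 (7 exon blocks), ranged in WT from 5.26 through a median of 6.94 to 8.35 CPM and in bsg from 12.8 through 16.5 to 18.7 CPM. Its lowest bsg heart was thus 1.53 times its highest WT heart, and its log2 fold change was 1.23 (SE 0.09), with 1.39 (SE 0.13) in males and 1.08 (SE 0.12) in females. The second, on the plus strand at 40910914 to 41058612 (17 exon blocks), ranged from 23.3 through 27.5 to 28.1 CPM in WT and from 34.3 through 40.4 to 49.7 CPM in bsg. It separated clearly as well, with a ratio of the nearest hearts of 1.22, a log2 fold change of 0.61 (SE 0.07), and 0.58 in males beside 0.63 in females. The third, on the minus strand at 54337643 to 54444328 (29 exon blocks), ranged from 46.7 through 52.9 to 55.6 CPM in WT and from 57 through 68.1 to 74.3 CPM in bsg. Its nearest hearts were only 1.03-fold apart, and its log2 fold change was 0.36 (SE 0.06), nearly equal in males (0.35) and females (0.36).

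Among the genes lower in every bsg heart, MGP_C57BL6NJ_G0025430 had the largest difference. It lies on the minus strand from 28073628 to 28151171 and has 24 exon blocks with 5420 bp of exon. WT females had 15.7, 17.9, 15.9 and 18.5 CPM, and WT males 20.2, 19.3 and 23.6 CPM. bsg females had 8.38, 7.39, 6.50, 8.02 and 8.29 CPM, and bsg males 8.47, 8.82, 9.24, 9.30 and 7.31 CPM. The ranges of the genotypes lay well apart, with the lowest WT heart at 1.69 times the highest bsg heart. WT hearts averaged 18.7 ± 2.70 CPM (SD, n = 7) and bsg hearts 8.17 ± 0.892 CPM (SD, n = 10). The fitted difference was -1.21 (SE 0.07) on the log2 scale, with -1.28 (SE 0.10) in males and -1.14 (SE 0.09) in females.

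MGP_C57BL6NJ_G0025505, on the minus strand from 38277566 to 38316403 (14 exon blocks), was next among the lower genes. WT females had 15, 14.8, 15.1 and 17.9 CPM and WT males 16.5, 15.1 and 15.5 CPM. bsg females had 10.6, 8.64, 11.8, 10.4 and 9.51 CPM and bsg males 11.2, 10.2, 12.9, 13.7 and 11.7 CPM. The separation was narrow, at 1.08-fold between bsg male replicate 4 and WT female replicate 2, and the log2 fold change was -0.51 (SE 0.07). The last of the lower genes, on the plus strand at 42470776 to 42509077 (9 exon blocks), varied little within each genotype: WT hearts ranged from 36 through 37.1 to 39.2 CPM and bsg hearts from 26.2 through 30.5 to 32.8 CPM. Its log2 fold change of -0.31 had the smallest SE of the 8 separated genes, 0.04, and its nearest hearts were 1.10-fold apart.

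**Figure D2:**
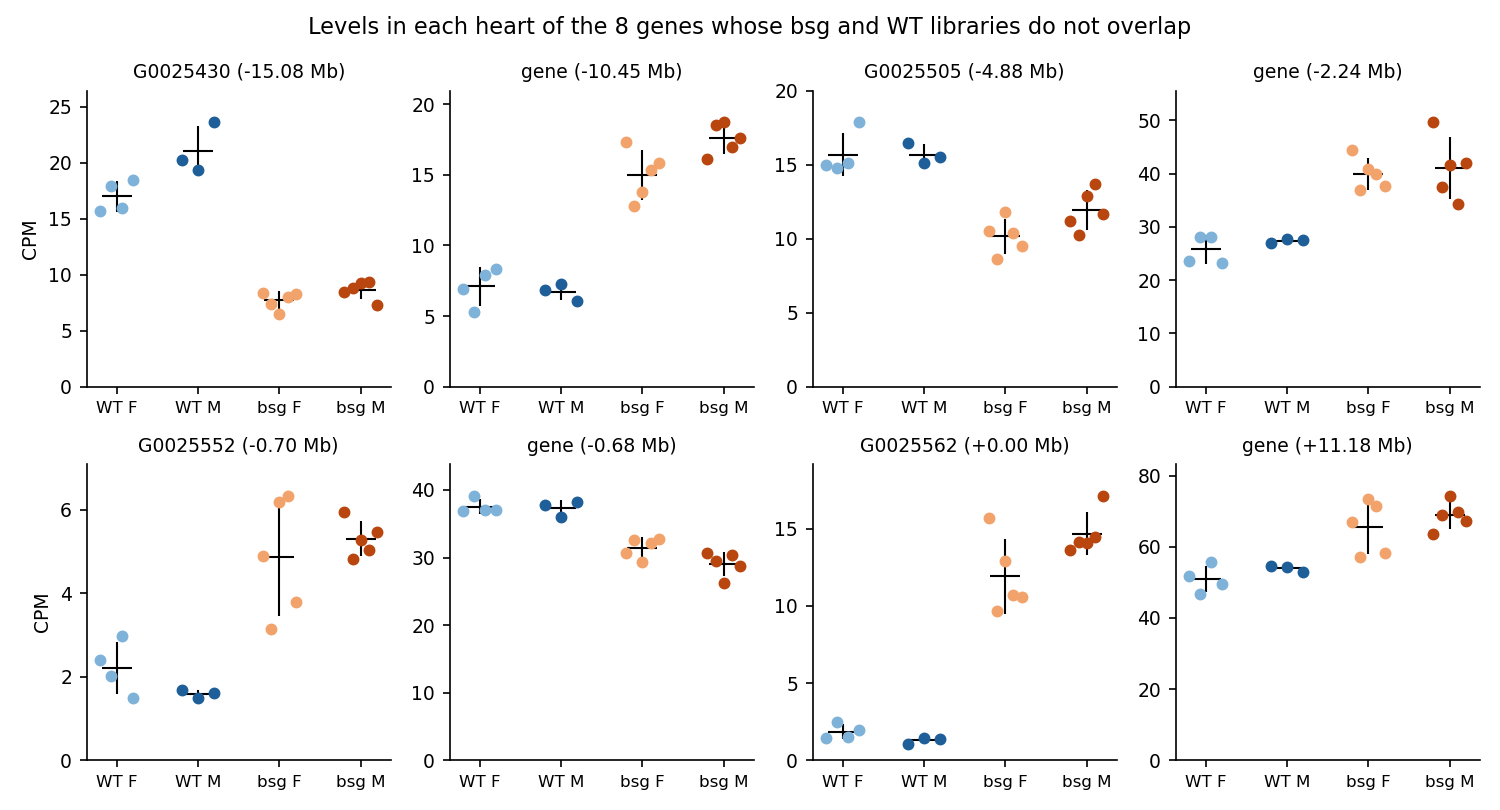
The level in CPM, on axes that start at 0, of the 8 genes whose bsg and WT hearts do not overlap, in chromosomal order, with each gene's distance in Mb from MGP_C57BL6NJ_G0025562 in its title. Each point is a heart, F and M mark females and males, and the lines are the group mean ± SD (n = 4 and 3 for female and male WT hearts, 5 for each sex of bsg). In every panel all bsg points lie on 1 side of all WT points, and the gap is widest for MGP_C57BL6NJ_G0025562.

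The separated genes at 42.45 and 42.47 Mb are direct neighbours. They lie 6.4 kb apart on opposite strands, and the first was higher and the second lower in bsg. From 42 to 43 Mb, a window picked with the calls known, 5 of 17 fitted genes were called, beside 4.26% of all fitted genes. The third of them, at 42.31 Mb on the plus strand, was lower in bsg (-0.27, SE 0.06), with WT at 12.3 to 17 CPM and bsg at 11.4 to 13.3 CPM. Only WT female replicate 1, the lowest WT heart, fell within the bsg range there. The fourth, a gene of 1 exon block at 42.54 Mb on the plus strand, was higher (0.26, SE 0.05), with WT at 48.4 to 61.2 CPM and bsg at 59.4 to 71.9 CPM. There a single WT heart, WT male replicate 3, lay within the bsg range.

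The fifth of these called genes lies at 42585758 to 42590050 on the minus strand (3 exon blocks). It had the largest estimate among the lower genes and also the least steady levels. WT females had 2.97, 21.9, 4.84 and 5.31 CPM, and WT males 32.2, 7.68 and 18.1 CPM. bsg females had 6.83, 2.93, 3.35, 2.39 and 2.38 CPM, and bsg males 5.83, 4.38, 3.89, 3.25 and 2.14 CPM. High levels were thus seen in 3 WT hearts, and 3 of the other WT hearts lay within the bsg range. Over all hearts the estimate was -1.79 (SE 0.39) on the log2 scale, but -1.30 without WT female replicate 2, -1.26 without that library and bsg female replicate 2, and -1.45 without WT male replicate 2 as well. Without WT male replicate 1, the highest heart, it was -1.50 and the gene was no longer called.

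Near 37 Mb the called genes had a pattern that set a single WT heart against the others. The gene at 37275745 to 37378863 on the minus strand (28 exon blocks) had 238, 256 and 228 CPM in WT females 2, 3 and 4 and 243, 246 and 251 CPM in the WT males. WT female replicate 1 had 99.1 CPM. The bsg hearts ranged from 98.7 through a median of 114 to 130 CPM. WT female replicate 1 was therefore at 0.405 of the median of the other WT hearts and at 0.868 of the bsg median, inside the bsg range. On the log2 scale the difference was -0.97 (SE 0.13) over all hearts and -1.08 (SE 0.05) without WT female replicate 1. Without that library all remaining WT hearts lay above all bsg hearts, which follows from leaving out the only WT heart within the bsg range. The gene was called in 24 of 25 alternatives, and with libraries summed by title number (-0.93) it was not.

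The gene at 36866245 to 36868310 on the minus strand, with 2 exon blocks, showed a like arrangement at a low level. WT female replicate 1 had 1.83 CPM, the other 6 WT hearts had 3.03 to 5.10 CPM, and the bsg hearts had 0.698 to 2.20 CPM. Again WT female replicate 1 lay inside the bsg range, at 0.452 of the median of the other WT hearts. The estimate was -1.30 (SE 0.19), and -1.40 (SE 0.17) without that library. The next gene, 6.8 kb further on the plus strand with 38 exon blocks, had 31.5 CPM in WT female replicate 1, 36 to 47.6 CPM in the other WT hearts and 26.3 to 36.2 CPM in bsg. Its log2 fold change was -0.30 (SE 0.08), and its call was kept in only 8 of 25 alternatives.

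The shift of WT female replicate 1 was not shared by all genes of that neighbourhood. Of the 2 fitted genes between these and the gene at 37.28 Mb, the one at 37.20 Mb had that heart at 1.02 of the median of the other WT hearts. The one at 36.98 Mb had it at 0.89 of that median and at 0.994 of the bsg median. There it had 105 CPM, just below the other WT hearts (108 to 137 CPM), and bsg hearts ranged from 93.4 to 118 CPM. A gene at 37.41 Mb, where bsg and the other WT hearts had similar medians of 2.66 and 2.60 CPM, had 1.39 CPM in WT female replicate 1, below all other hearts of both genotypes. Of the 15 fitted genes from 36 to 38 Mb, 6 had WT female replicate 1 below every other WT heart. This range was picked with the levels of that heart known, and no like count was made for other hearts or over all fitted genes. The margin could be small, as at 36.26 Mb with 44.1 CPM beside 45.6 CPM in the next WT heart. A wider look took the 158 genes of the stretch whose average log2 CPM was 3 or more. WT female replicate 1 was beyond 2-fold of the median of the other WT hearts at 1 of them, at 37.28 Mb. Each of the 17 libraries, set against the other hearts of its own genotype, was so at 0 to 2 genes. The gene at 36.87 Mb, where WT female replicate 1 was at 0.452, has a lower average and is not among the 158. Leaving out WT female replicate 3 or WT male replicate 3 gave 10 separated genes in place of 8. Leaving WT female replicate 1 out raised the number from 8 to 11, the additions being the genes at 36.87, 37.28 and 42.31 Mb. At each of these it was the only WT heart within the bsg range, so the added separations follow from leaving it out. What sets this heart apart at these genes was not tested.

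**Figure D3:**
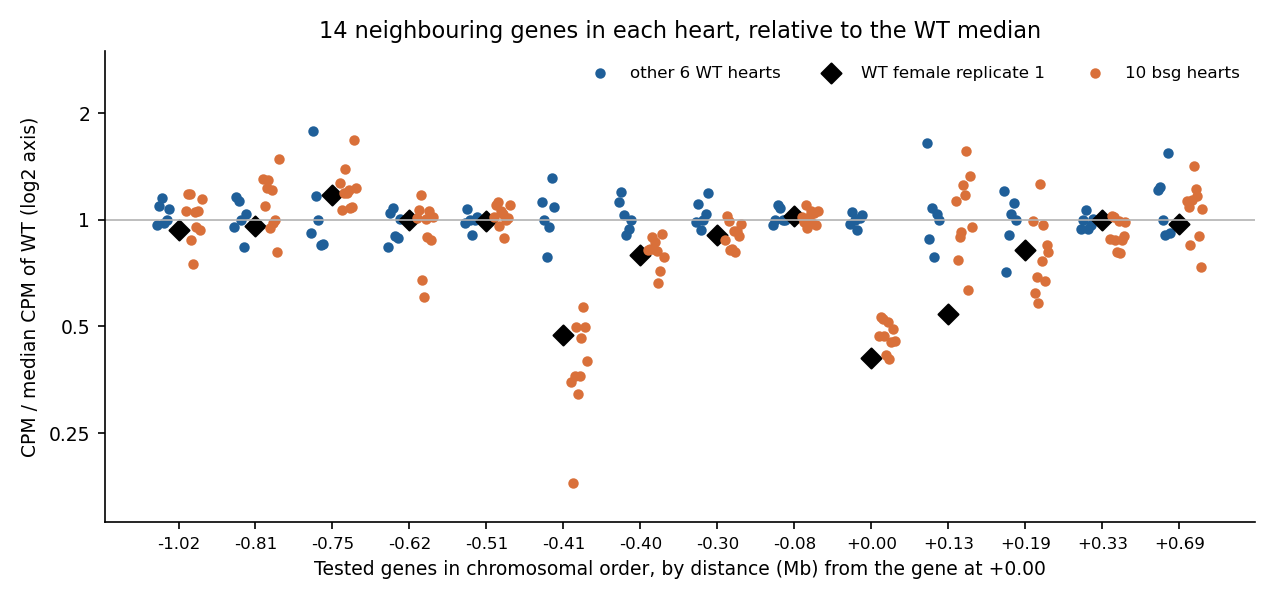
The level of 14 neighbouring fitted genes in each heart, as CPM divided by the median of the 7 WT hearts on a log2 axis, in chromosomal order, labelled by distance in Mb from the gene at 37.28 Mb. The gene with a median under 1 CPM in the other WT hearts is left out. WT female replicate 1 (black diamonds) lies with the bsg hearts (orange) and apart from the other 6 WT hearts (blue) at distances of 0.00 and -0.41 Mb, and lies below all hearts at 0.13 Mb.

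From 38.61 to 39.09 Mb 3 consecutive genes were called with unlike directions. The first, on the plus strand with 37 exon blocks, was lower in bsg (-0.22, SE 0.06), as was the second, 3.1 kb further on the minus strand (-0.33, SE 0.08). The third, on the plus strand at 39.00 Mb, was higher (0.28, SE 0.07), with 0.45 in males and 0.11 in females. Their hearts overlapped: 2 of 7 WT hearts lay within the bsg range at the first gene, 2 at the second and 1 at the third.

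Around 45 Mb 3 genes in a row differed widely between hearts. The first, on the plus strand at 44834733 to 44849270 (6 exon blocks), had 76.8, 87.9, 76.2 and 136 CPM in WT females, 60.9, 92.8 and 58.4 CPM in WT males, 41.1, 46.4, 57.2, 39.0 and 30.5 CPM in bsg females and 49.3, 40.3, 37.3, 60.2 and 38.8 CPM in bsg males. It was lower in bsg in both sexes, with only WT male replicate 3 inside the bsg range, and the log2 fold change was -0.89 (SE 0.15), with -0.64 (SE 0.22) in males and -1.14 (SE 0.21) in females. The second, 33.5 kb further on the same strand at 44882795 to 44897823 (7 exon blocks), had 14.9, 12.8, 10.2 and 12.8 CPM in WT females, 13.6, 17.5 and 9.39 CPM in WT males, 62.8, 24.7, 40.3, 26.1 and 29.2 CPM in bsg females and 22.6, 14.7, 13.2, 14.5 and 28.5 CPM in bsg males. All bsg females were above all WT hearts, while 3 of 5 bsg males lay among the WT hearts. Its estimate was 1.00 (SE 0.22), with 0.47 (SE 0.32) in males and 1.53 (SE 0.29) in females, and the gene was not called without WT male replicate 3.

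The third of these genes, on the minus strand at 44956723 to 44969981 (6 exon blocks), was not called although its estimate was -1.20. WT females had 783, 2114, 1141 and 2429 CPM and WT males 165, 732 and 35.9 CPM. bsg females had 155, 630, 175, 42.7 and 57.4 CPM and bsg males 530, 48.4, 44.5, 1535 and 79.5 CPM. Within each group the level ranged widely, from 35.9 to 732 CPM in WT males alone, and the SE of the estimate was 0.75. The gene at 46.94 Mb on the plus strand (4 exon blocks) varied in a like way and was not called either (1.43, SE 1.36). It had 15.3 CPM in WT female replicate 4, 12.5 CPM in bsg male replicate 4 and 9.67 CPM in bsg female replicate 2, against 0 to 3.12 CPM in the other 14 hearts. The remaining gene with an uncalled difference of at least 2-fold, at 54.88 Mb on the minus strand, was close to the lower limit of detection, with 69 fragments over the WT libraries and 44 over the bsg libraries (-1.32, SE 0.44).

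The other called genes differed by less than 1.5-fold, and their hearts overlapped. Higher in bsg were genes at 24.24 Mb (log2 fold change 0.28, SE 0.06), 31.60 Mb (0.33, SE 0.06) and 56.95 Mb (0.22, SE 0.06). At 24.24 Mb WT hearts ranged from 78.1 to 95.3 CPM and bsg hearts from 89.4 to 117 CPM, and 2 WT hearts lay within the bsg range. At 31.60 Mb the ranges were 52.5 to 62.0 and 58.4 to 86.2 CPM, and bsg female replicate 4 alone among the bsg hearts lay among the WT hearts. At 56.95 Mb they were 17.4 to 23.3 and 21 to 24.8 CPM, with 2 WT hearts in the bsg range. Also higher, at 22.14 Mb, was the gene taken up with the sexes below.

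Lower in bsg were genes at 23.89 Mb (-0.26, SE 0.07), 46.83 Mb (-0.19, SE 0.05), 47.42 Mb (-0.49, SE 0.13) and 47.57 Mb (-0.26, SE 0.06). Their WT hearts overlapped the bsg range more often, in 4 of 7 hearts at 23.89 and 46.83 Mb and in 6 of 7 at 47.42 and 47.57 Mb. At 47.42 Mb bsg males had 2.71, 2.22, 2.04, 2.48 and 3.40 CPM beside 4.25 to 4.75 CPM in WT males, while bsg females had 3.23 to 5.21 CPM beside 3.85 to 5.39 CPM in WT females. All bsg males lay below all WT hearts, as did 2 of the 5 bsg females. The difference was -0.80 (SE 0.19) in males and -0.17 (SE 0.17) in females, and the test of that difference between the sexes gave -0.63 (SE 0.25) with an adjusted p of 0.888 by edgeR's quasi-likelihood test. At 47.57 Mb bsg male replicate 3, with 89.4 CPM, lay well inside the WT range (70.6 to 91.5 CPM), and the other 9 bsg hearts ranged from 61.2 to 71 CPM. Among those 9, bsg male replicates 2, 4 and 5 lay just above the lowest WT heart.

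Within males alone 10 of the 228 genes were called (4.39%, beside 0.546% of all fitted genes), 6 higher and 4 lower in bsg. That count was 5 without WT male replicate 2, 6 without WT male replicate 1 or 3, 5 with libraries summed by title number and 17 by DESeq2. Within females alone 13 were called (5.7%, beside 1.8%), 8 higher and 5 lower, while DESeq2 called 20 and the summed libraries gave 6. The lists shared 7 genes, which are 70% of the male list and 53.8% of the female list. All 27 genes called over both sexes had the same sign in males and in females, which their selection on the mean of the sexes favours. The plot of the estimates in each sex shows the 8 separated genes on the same side of 0 in both, with the widest gaps between the sexes at MGP_C57BL6NJ_G0025562 (0.80, SE 0.26) and MGP_C57BL6NJ_G0025552 (0.60, SE 0.32).

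**Figure D4:**
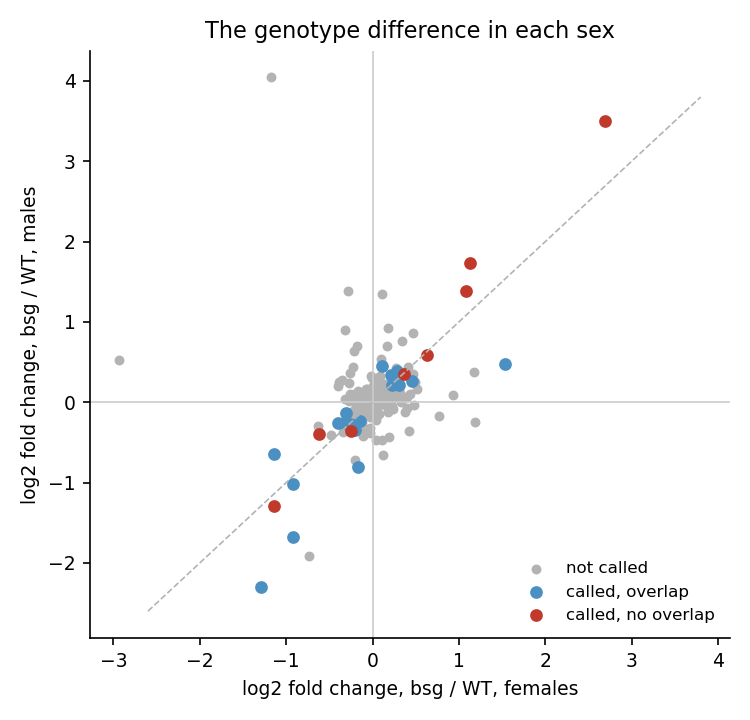
The log2 fold change of bsg over WT in males against that in females for the 228 fitted genes, with the dashed line where both are equal. Red points are the 8 genes whose bsg and WT hearts do not overlap, blue points are the other genes called over both sexes and grey points were not called. The red points have the same sign in both sexes, and MGP_C57BL6NJ_G0025562 lies above the line at 2.69 in females and 3.50 in males.

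Whether the bsg difference depends on sex was not part of the choice of the stretch and was tested. The interaction of sex and genotype was called at 0 of the 228 genes, beside 0% of all fitted genes, by edgeR's quasi-likelihood test, and DESeq2 also called 0. Before adjustment, 18 genes in the stretch (7.89%) and 776 in the whole table (5.17%) had a p under 0.05. The median SE of the interaction was 0.154 on the log2 scale. For MGP_C57BL6NJ_G0025562 the difference was larger in males by 0.80 (SE 0.26), with an unadjusted p of 0.00758 and an adjusted p of 0.888 in edgeR's quasi-likelihood test. The gene at 22.56 Mb on the plus strand had an interaction of 0.88 (SE 0.27), with bsg males at 4.14 to 4.47 CPM beside WT males at 2.31 to 3.03 CPM, and bsg females at 2.12 to 4.69 CPM beside WT females at 3.05 to 4.45 CPM. In the other direction the smallest p-values belonged to genes at 42.14 Mb (-0.49, SE 0.16) and 33.97 Mb (-0.32, SE 0.12). None of these 4 interactions passed the adjustment over all genes, and their adjusted p was 0.888 in each case by edgeR.

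The comparison of males with females, over both genotypes, called 1 gene of the stretch (0.439%, beside 0.32% of all fitted genes). MGP_C57BL6NJ_G0025403, on the minus strand from 22139365 to 22298049 with 14 exon blocks, had 8.01, 8.15, 7.33, 7.11 and 7.45 CPM in bsg females and 5, 5.78, 4.65, 5.92 and 5.83 CPM in bsg males. WT females had 5.43, 6.30, 4.91 and 5.50 CPM and WT males 4.25, 4.28 and 4.99 CPM. In bsg every female was above every male, and in WT only the lowest female, at 4.91 CPM, lay below the highest male. Males were lower by a fitted log2 difference of -0.39 (SE 0.08), with an adjusted p of 0.0392 by edgeR's quasi-likelihood test. The call was kept in 5 of 25 alternatives, over which the adjusted p ranged from 0.0167 to 0.285 and the log2 fold change from -0.43 to -0.33. The same gene was called for genotype, higher in bsg by 0.36 (SE 0.08) on the log2 scale. At an unadjusted p under 0.05, 42 genes of the stretch (18.4%) and 1629 of all fitted genes (10.9%) differed by sex.

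The 211 genes of the stretch that were not fitted had too few reads. No fragment was counted for 101 of them in any library, the others had a median of 10.5 fragments over all 17 libraries, and the highest had 130. None of the 211 separated bsg from WT hearts by its raw counts. Of the fitted genes, 119 lie on the plus strand and 109 on the minus strand, and 14 of the 27 called genes are on the minus strand.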

How the data were processed

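The deposited table holds whole-number counts of fragments per gene for 17 hearts, made by the authors with featureCounts 1.6.2 (strand setting 2, both ends aligned, mapping quality of at least 10, Ensembl release 109 annotation of C57BL_6NJ_v1), per the file headers. GRCm39, DESeq2, Subread and featureCounts appear in the submitters' processing notes. The aligner is not given in the sources used here. Samples were grouped by the labels' genotype and sex. The whole table was fitted in R 4.3.3 with edgeR 4.0.16: filterByExpr (minimum count 10, total 15) kept 15013 genes, library sizes were scaled by TMM, and 1 mean per group was estimated with glmQLFit. Contrasts were tested with glmQLFTest and adjusted by the Benjamini-Hochberg method over all fitted genes at 0.05. Genotype and sex contrasts weigh the groups equally, and the SE of a log2 fold change was taken as its size divided by the root of its F statistic.

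The stretch, the lists and the tests were chosen with earlier results of these data known. Genes named are those whose average log2 CPM is 1 or more and whose hearts do not overlap, with identifiers for only the first 2 in each direction, and called or lowest-p genes for sex and interaction. Genes of other called positions and the cluster near 37 Mb were chosen after their values were seen. Other settings tried were scaling by RLE or by upper quartile, no filter on counts, CPM above 1 in 3 libraries, DESeq2 1.42.0, leaving out each library, leaving out the 2 or 3 libraries that lie apart, and summing libraries by title number. The calls over both sexes and the count of separated genes were tried on simulated data with independent libraries. The other contrasts, DESeq2 and the summing of libraries were not checked in this way.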

Additional observations from a re-analysis of the deposited data

Results flagged for a closer look

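Among the 36 genes whose levels were examined heart by heart, 108 groups of 4 or 5 hearts were screened for a highest or lowest heart with a wide gap to the others, and 11 had such a heart. Chance gives about 1 in 20 for groups taken without regard to their values, and these genes were partly chosen with their values known, so the share is not set against that rate. At MGP_C57BL6NJ_G0025562 bsg male replicate 5 had 17.1 CPM, where the other bsg males had 13.6 to 14.5. At MGP_C57BL6NJ_G0025505 WT female replicate 4 had 17.9 CPM, where the other WT females had 14.8 to 15.1. At the gene at 42.47 Mb WT female replicate 2 had 39.2 CPM (others 36.9 to 37.1), and at 36.87 Mb bsg male replicate 2 had 0.698 CPM (others 1.35 to 1.55). In all 4 of these genes the heart lay further from the other genotype than its group did.

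At the gene at 42.59 Mb 2 hearts stood out, WT female replicate 2 with 21.9 CPM (others 2.97 to 5.31) and bsg female replicate 1 with 6.83 CPM (others 2.38 to 3.35). bsg female replicate 2, which also lies apart over all genes, was high at 44.96 Mb with 630 CPM (others 42.7 to 175) and at 46.94 Mb with 9.67 CPM (others 0.0621 to 0.45). At 46.94 Mb bsg male replicate 4 was high as well, with 12.5 CPM (others 0.0635 to 0.353). The remaining 2 were bsg male replicate 3 at 47.57 Mb, with 89.4 CPM (others 67.7 to 71), and WT female replicate 2 at 54.88 Mb, with 1.3 CPM (others 0.379 to 0.453). WT female replicate 1, described above at 36.87 and 37.28 Mb, was not picked out by this screen.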

How the results depend on the processing

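Of 175 alternative values of the gene counts and of the log2 fold change of MGP_C57BL6NJ_G0025562, 145 stayed close to the main value and 30 moved. The count by sex stayed close in only 5 of 25. Only the log2 fold change could have reversed, and it kept its sign in all 25 alternatives. All 8 separated genes stayed separated under RLE and upper-quartile scaling, while leaving out or summing libraries or changing the filter can end a separation only through small shifts in scaling and is no sign of stability. Leaving out 1 library at a time gave 18 (without WT male replicate 3) to 27 called genes over both sexes, 5 to 11 in males, 10 to 15 in females, 0 to 2 by sex and 8 to 11 separated. In males the count was 6 without WT replicate 1 or 3 and 5 without WT replicate 2. DESeq2 called 32 genes over both sexes, 17 in males, 20 in females and 2 by sex. Without a filter on counts 21 were called over both sexes, 11 higher and 10 lower in bsg. Summing libraries by title number left 2 or 3 samples per group and gave 13 called over both sexes, 5 in males, 6 in females and 0 by sex. It also gave 23 separated, with fewer samples left to overlap, and what raised that number was not tested. By sex the count was also 0 without a filter and without the 2 or 3 libraries that lie apart. Requiring 1.5-fold as well left 10 called genes. Windows of 10 Mb all (100%) held a separated gene, against 62.5% of 5 Mb windows. No paired analysis was possible because the replicate numbers were given in accession order and pair no hearts. Depth limits genes under about 1 CPM, and the overlap of genes on the same strand was not examined.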
